A study of Rattus norvegicus with 12 samples.

Results

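The genes described here were the carriers that move inorganic ions, phosphate, sulfate and metals across membranes, taken as every gene of the solute carrier families 4, 8, 9, 11, 12, 20, 24, 26, 30, 31, 34, 39, 40 and 41 on the array. They were chosen by gene symbol alone, with the transcript cluster of highest mean over all arrays standing for a gene. The rule found 78 genes among 14300 genes with a symbol of their own, on an array of 27342 transcript clusters. It also took in Slc4a1ap (kanadaptin), an adaptor protein that carries a carrier's name. Slc41a1 was not analysed here. RNA came from cartilage of the proximal tibia of 10-day-old Sprague-Dawley rats, and the labels give no treatment and no genetic change for any group. Superficial zone (SZ) and intermediate/deep zone (IDZ) were layers of articular cartilage, and resting zone (RZ) was the uppermost layer of growth plate cartilage. Each zone had 4 arrays. The tissue came from 8 animals and was cut by hand under a microscope. An SZ sample held both tibias of 1 animal, whereas an IDZ or RZ sample pooled the tibias of 2 animals, and an IDZ and an RZ sample with equal numbers shared their animals. The question was how the layers of the joint surface differ from each other and from the top of the growth plate.

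Chondrocytes lie in a matrix whose proteoglycans carry chains of sulfated sugars, so they take up sulfate and activate it before it can be added to those chains. The fixed negative charge of the matrix draws in cations and water, and the cells hold their volume and pH with sodium, chloride, bicarbonate and proton carriers. Phosphate and calcium become mineral in the lower growth plate. Zinc, iron, copper and manganese are bound by matrix proteases, collagen-modifying enzymes and antioxidant enzymes. Cells set the level of each metal with separate carriers for entry, export and storage.

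All values are log2 expression levels from robust multi-array average (RMA), so a difference of 1 is 2-fold. The error after ± is the standard error (SE) of a difference in the limma fit, with n = 4 arrays per zone. Levels of different genes cannot be ranked, because probes differ in brightness. Of the 78 carriers, 41 had a mean over the 12 arrays above that of the median cluster (6.83) and 37 lay below it. The defining cartilage genes were bright in every zone, with zone means of 13.66 in SZ, 13.84 in IDZ and 13.75 in RZ for Col2a1. Of the 11 chondrocyte markers 9, Acan among them, were lower in SZ than in IDZ. Several other marker lists were higher in SZ, and which cells of SZ held this RNA was not tested. All 12 macrophage markers were higher in SZ than in IDZ (mean of the list 8.39 to 9.33 in SZ, 6.74 to 6.86 in IDZ and 6.45 to 7.10 in RZ), as were 7 of 8 endothelial markers (8.49 to 9.05, 6.61 to 6.96 and 6.45 to 6.66) and all 9 fibrous tissue markers (11.15 to 11.60, 8.27 to 8.93 and 6.83 to 7.35). All 4 joint surface markers were higher in SZ than in IDZ too (mean of the list 9.73 to 10.21 in SZ, 7.68 to 8.41 in IDZ and 6.48 to 6.99 in RZ). So were 3 of 4 osteoclast markers (8.54 to 8.85, 7.11 to 7.72 and 6.79 to 7.91). Between IDZ and RZ none of the macrophage or endothelial markers passed the test (median differences 0.12 and 0.32). In that comparison 5 of 9 fibrous markers and 2 of 4 joint surface markers were higher in IDZ. Array medians ran from 6.76 to 6.90. The top value and the narrowest interquartile range (2.24, the others 2.50 to 2.91) both belonged to SZ replicate 4, which often gave the lowest SZ value below.

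Between SZ and IDZ, 11 carriers passed an adjusted p of 0.05 as spatially upregulated in SZ and 13 as upregulated in IDZ, which is 14.1% and 16.7% of the 78. The background was 11.8% of all clusters higher in SZ and 11.2% higher in IDZ, or 17.0% and 9.56% of the 14300 genes. A further 2-fold minimum left 4 carriers, 5.13%, against 3.94% of clusters and 5.58% of genes. The median log2 difference over the carriers was -0.08, equal to the -0.08 over all clusters. SZ was the higher zone for the iron exporter Slc40a1, the sodium-calcium exchangers Slc8a1 and Slc24a3, the zinc carriers Slc39a1, Slc39a10 and Slc30a4, the copper carrier Slc31a2, the phosphate cotransporter Slc20a1, the endosomal sodium-proton exchanger Slc9a9, the potassium-chloride cotransporter Slc12a7 and the macrophage metal carrier Slc11a1. IDZ was the higher zone for the sulfate carriers Slc26a2 and Slc26a1, the anion exchanger Slc26a7, the zinc carriers Slc39a14, Slc39a11, Slc39a7 and Slc30a9, the bicarbonate carriers Slc4a3 and Slc4a8, the sodium-proton exchangers Slc9a5 and Slc9a8, Slc8a3 and Slc12a4. These counts shift with single arrays. Without SZ replicate 4, 14 carriers were higher in SZ and 21 in IDZ, while the calls over all 27342 clusters rose to 4953 and 6414. Since these are bulk samples, fewer cells of a type and less RNA per cell cannot be told apart here or in any value below.

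Between IDZ and RZ, the deeper articular layers and the top layer of the growth plate, fewer carriers passed the test. Slc39a8, Slc9a9 and Slc30a1 were higher in IDZ (3.85% of the 78, against 2.78% of clusters and 3.22% of genes), and Slc40a1, Slc11a2, Slc12a7 and Slc20a2 were higher in RZ (5.13%, against 3.95% and 5.58%). Slc40a1 and Slc39a8 passed 2-fold, 2.56% of the carriers against 0.918% of clusters and 1.23% of genes. With the shared animals as a replicate block, in a fit of IDZ and RZ arrays alone, the counts were 5 higher in IDZ and 10 higher in RZ, and the same arrays without the block gave 4 and 10. Over all clusters the block gave 1662 and 2324 calls, against 760 and 1080. Leaving out SZ replicate 4, whose spread enters the error shared by all zones, gave 4 and 8 (1572 and 2353 over all clusters). Leaving out IDZ replicate 2 or RZ replicate 1 gave 2 higher in RZ, while the calls over all clusters fell from 1080 to 639 and 650. The median log2 difference was 0.04 over the carriers and 0.03 over all clusters.

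Between SZ and RZ, 10 carriers were higher in SZ and 15 in RZ, 12.8% and 19.2% of the 78. The background was 10.0% and 11.1% of clusters, or 14.5% and 12.2% of genes. At 2-fold there were 6 carriers (7.69%, against 4.54% of clusters and 6.66% of genes), namely Slc8a1, Slc9a9, Slc24a3 and Slc39a8 on the SZ side and Slc26a2 and Slc39a14 on the RZ side. Without SZ replicate 2 or without RZ replicate 1, 6 carriers were higher in SZ, while the calls over all clusters went from 2747 to 2489 and 2413. The SZ arrays enter both this comparison and the one with IDZ, so the values of a gene in these comparisons are not independent. Arrays of the zones did not overlap for 20 carriers in SZ against IDZ (25.6%, background 22.3% of clusters), 21 in IDZ against RZ (26.9%, background 20.2%) and 21 in SZ against RZ (26.9%, background 22.0%). In all, 31 carriers passed the test in at least 1 comparison and 47 in none, and 24 of the 31 were among the 41 brighter ones. The matching shares over all clusters were not counted, so neither number can be read as particular to carriers.

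**Figure D1:**
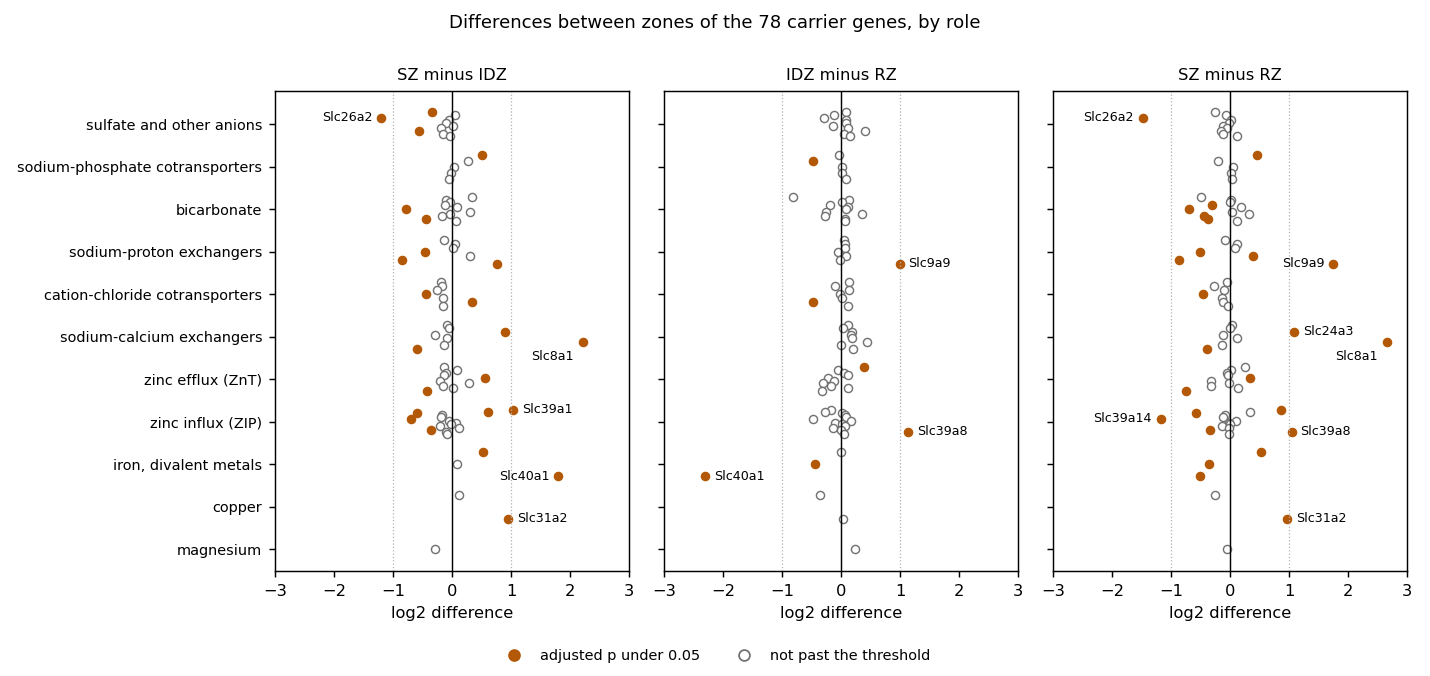
Log2 difference between zones (x axis) of each of the 78 carriers, 1 point per gene, by role (y axis), for SZ minus IDZ, IDZ minus RZ and SZ minus RZ. Filled points passed an adjusted p of 0.05, dotted lines mark 2-fold, and most carriers lie close to 0 while Slc8a1 (2.21 and 2.65), Slc40a1 (1.80 and -2.31) and Slc26a2 (-1.20 and -1.48) stand far out.

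The sulfate carriers were lowest in SZ. Slc26a2, the main sulfate transporter of chondrocytes, whose loss in humans causes chondrodysplasias such as diastrophic dysplasia, had log2 levels of 8.57, 8.86, 9.31 and 8.70 in SZ, 10.14, 10.00, 10.03 and 10.08 in IDZ and 10.45, 10.42, 10.24 and 10.28 in RZ. The 3 zones did not overlap, and every SZ array lay well below the articular IDZ arrays. The SZ minus IDZ difference was -1.20 ± 0.13 (SE), that is 2.30-fold lower, with an adjusted p of 7.6e-06 from limma. Against RZ the difference was -1.48 ± 0.13, or 2.80-fold (adjusted p 5.9e-07). IDZ was lower than RZ in each of the 4 animal pools, by log2 differences of -0.31, -0.42, -0.21 and -0.20. That mean difference of -0.29 missed the threshold (adjusted p 0.25) but passed it in fits of IDZ and RZ arrays alone, paired by a replicate block (adjusted p 0.036) or not (0.024). Within animals 5 and 6, SZ lay at -1.31 from IDZ, and within animals 7 and 8 at -1.08.

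Slc26a1, a sulfate and oxalate exchanger, showed a smaller step in the same direction, with 6.6 to 6.86 in SZ, 6.89 to 7.13 in IDZ and 6.84 to 7.07 in RZ. SZ and IDZ arrays did not overlap, and the difference of -0.34 ± 0.09 passed the test (adjusted p 0.013). Against RZ it was -0.26 (adjusted p 0.055), which passed with a random replicate block (-0.28, 0.049), in 4 other alternatives (0.016 to 0.036) and without SZ replicate 4 (0.0099) or RZ replicate 4 (0.05). Slc26a7, a chloride and bicarbonate exchanger known from kidney, stomach and thyroid, was low on the array and 0.56 higher in IDZ than in SZ on the log2 scale (adjusted p 0.015). Of the 10 family members, 3 were higher in IDZ than in SZ (background 11.2% of clusters and 9.56% of genes) and none was higher in SZ (11.8% and 17.0%). None passed between IDZ and RZ, where 2.78% of clusters were higher in IDZ and 3.95% in RZ.

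Of 6 genes of sulfate activation and use, 3 were lower in SZ than in IDZ, 4 were lower in SZ than in RZ, and none was higher in SZ. The background was 11.2% of clusters lower in SZ than in IDZ and 11.1% lower than in RZ, or 9.56% and 12.2% of genes. Papss2, which makes the activated sulfate donor and whose loss in humans also gives a skeletal dysplasia, had levels of 9.94, 10.12, 10.45 and 9.75 in SZ, 11.19, 11.17, 11.31 and 11.41 in IDZ and 11.71, 11.76, 11.51 and 11.62 in RZ. In SZ, replicate 3 was the highest array for Papss2 as it was for Slc26a2. Its SZ minus IDZ difference was -1.21 ± 0.13 (adjusted p 6.1e-06) and its SZ minus RZ difference -1.59 ± 0.13 (adjusted p 2.5e-07). Papss1, the second such synthase, differed by -0.50 (adjusted p 0.011), and Slc35b2, which brings the donor into the Golgi, by -0.58 (adjusted p 0.0045). The list level ran from 8.23 to 8.84 in SZ and from 8.92 to 9.10 in IDZ. Levels of the chondrocyte markers moved the same way (11.53 to 11.82 in SZ, 12.51 to 12.58 in IDZ and 12.36 to 12.59 in RZ), and their part in the sulfate result was not tested.

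**Figure D2:**
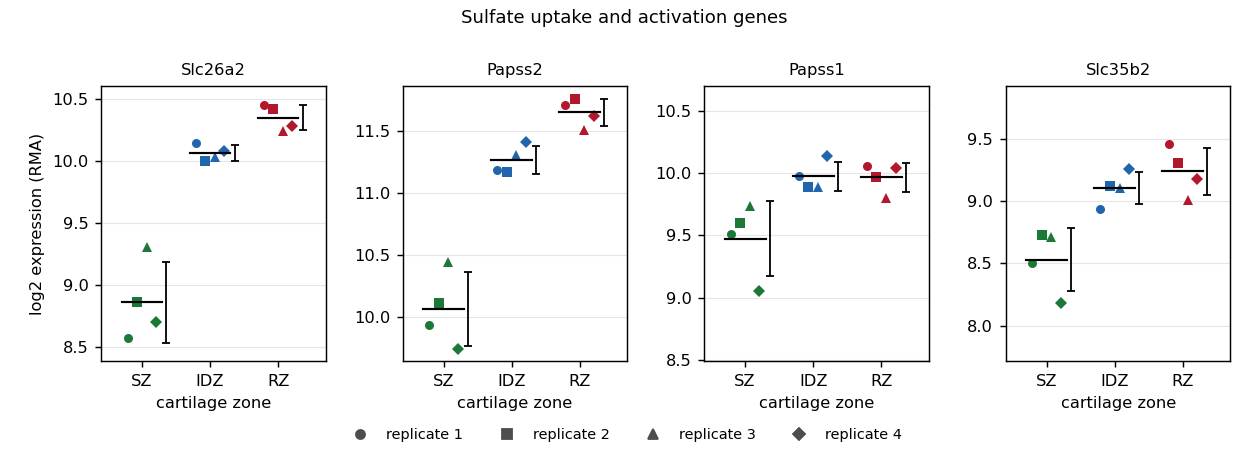
Log2 expression (y axis) of Slc26a2, Papss2, Papss1 and Slc35b2 in each array, by zone (x axis). Symbols are replicates, lines are means and bars are SD (n = 4), and all SZ values of Slc26a2 (8.57 to 9.31) and Papss2 (9.75 to 10.45) lie below all IDZ and RZ values.

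The widely expressed sodium-phosphate cotransporters differed by less, and each in its own zone. Slc20a1 had levels of 9.23, 9.61, 9.40 and 8.87 in SZ, 8.96, 8.73, 8.87 and 8.57 in IDZ and 8.87, 8.87, 8.93 and 8.60 in RZ. Only the lowest SZ array, replicate 4, fell among the IDZ and RZ arrays. It was 1.41-fold higher in SZ than in IDZ (0.50 ± 0.14, adjusted p 0.019) and 1.38-fold higher than in RZ (0.46 ± 0.14, adjusted p 0.03). The first call was lost without SZ replicate 2 or 3 or IDZ replicate 2 or 4 (adjusted p up to 0.064). The second was lost without SZ replicate 1, 2 or 3 or RZ replicate 1, 2 or 4 (up to 0.1) and with a random replicate block (0.062).

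Slc20a2 was instead highest in RZ, with 9.09, 8.86, 8.97 and 8.85 there and 8.49, 8.39, 8.45 and 8.53 in IDZ. These arrays did not overlap. IDZ lay below RZ in all 4 animal pools, by -0.60, -0.47, -0.52 and -0.32, and the mean difference was -0.48 ± 0.11 (adjusted p 0.013). Leaving out IDZ replicate 2 or RZ replicate 1 gave an adjusted p of 0.05 and 0.053. SZ, at 8.47 to 8.92, lay between them, and neither of its differences passed the test (0.27 from IDZ, adjusted p 0.087, or 0.35 and 0.0064 without SZ replicate 4, and -0.21 from RZ, adjusted p 0.21). The kidney and gut type cotransporters Slc34a1, Slc34a2 and Slc34a3 all lay below the median cluster and passed no test.

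Of 7 genes of phosphate and pyrophosphate handling and its regulation, 2 were higher in SZ than in IDZ and 2 lower (background 11.8% and 11.2% of clusters). Ankh, which exports ATP and pyrophosphate and holds back mineral, stepped down from 10.51, 10.82, 10.73 and 10.14 in SZ to 8.81, 8.79, 9.07 and 8.92 in IDZ and to 7.46, 8.17, 7.90 and 7.53 in RZ. No zones overlapped, and the SZ minus RZ difference was 2.78 ± 0.17, or 6.88-fold (adjusted p 8.8e-09). The fibrous and joint surface lists fell over the zones in the same order, and their part in the Ankh steps was not tested. Alpl, the alkaline phosphatase that removes pyrophosphate, gave the opposite picture at the growth plate, with 10.12 to 10.54 in RZ against 8.53 to 8.79 in SZ and 8.61 to 8.77 in IDZ. RZ was 3.02-fold above IDZ for Alpl (adjusted p 1.5e-07), and SZ and IDZ means differed by 0.00 ± 0.10. Phospho1, another phosphatase of mineralization, was 0.78 lower in SZ than in IDZ on the log2 scale, and Enpp1, which makes pyrophosphate, was 0.54 higher in SZ. The mean of the osteoblast markers was 7.84 to 8.70 in SZ, 7.28 to 7.60 in IDZ and 7.32 to 8.29 in RZ, and of the 6 only Ibsp passed between IDZ and RZ. The median IDZ minus RZ difference of the 6 was -0.38, the direction of the Alpl step. Their part in the Alpl step was not tested.

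**Figure D3:**
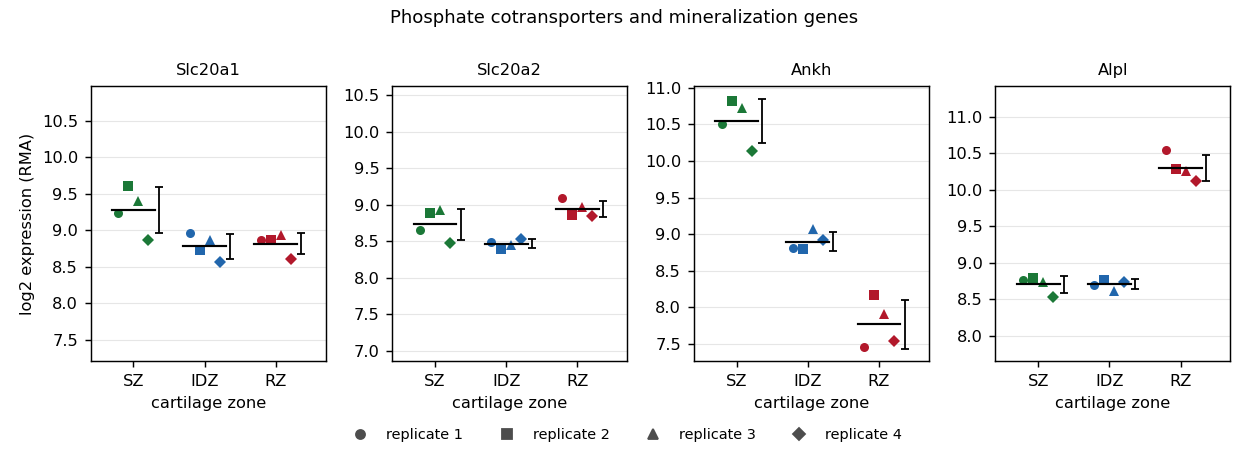
Log2 expression (y axis) of Slc20a1, Slc20a2, Ankh and Alpl in each array, by zone (x axis), with replicates as symbols, the mean as a line and SD as a bar (n = 4). Ankh falls from SZ (10.14 to 10.82) over IDZ to RZ (7.46 to 8.17), Alpl is high in RZ only, and the cotransporters differ by at most 0.50 between zone means.

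Among all 78 carriers Slc40a1 (ferroportin), the exporter that releases iron from cells, differed most between IDZ and RZ. Its levels were 10.01, 10.24, 10.16 and 10.06 in SZ, 8.20, 8.39, 8.09 and 8.60 in IDZ and 10.55, 10.53, 10.52 and 10.91 in RZ. IDZ was the low zone on every array, and the 3 zones did not overlap. SZ was 3.48-fold above IDZ (1.80 ± 0.12, adjusted p 6.7e-08) and RZ 4.96-fold above IDZ (IDZ minus RZ -2.31 ± 0.12, adjusted p 3.1e-08). RZ was also 1.42-fold above SZ (SZ minus RZ -0.51 ± 0.12, adjusted p 0.0066). In the 4 animal pools the IDZ minus RZ difference was -2.35, -2.14, -2.43 and -2.31, and within animals 5 and 6 and animals 7 and 8 SZ lay above IDZ by 2.04 and 1.52. All 3 calls held in every alternative tried and without any single array.

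Macrophages and red blood cell precursors are known for Slc40a1, so their markers are given beside it. The macrophage list was higher in SZ than in IDZ by a median of 2.09, in step with Slc40a1 there, and its part in that difference was not tested. Between IDZ and RZ none of the 12 passed and their median difference was 0.12. Of the 6 erythroid markers none passed in any comparison, although they varied from array to array (6.42 to 8.10 in SZ, 6.77 to 7.71 in IDZ and 6.73 to 8.54 in RZ). All 6 had a higher mean in RZ than in IDZ, the direction of Slc40a1 (IDZ minus RZ from -0.94 to -0.26, median -0.52), and their part in its step was not tested. Slc4a1, the chloride-bicarbonate exchanger of red cells, varied as those markers do, with 7.28 to 9.58 in SZ, 7.43 to 8.92 in IDZ and 7.46 to 9.96 in RZ. Its zone differences of 0.33, -0.82 and -0.49 lay within that spread (adjusted p 0.71, 0.45 and 0.65).

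**Figure D4:**
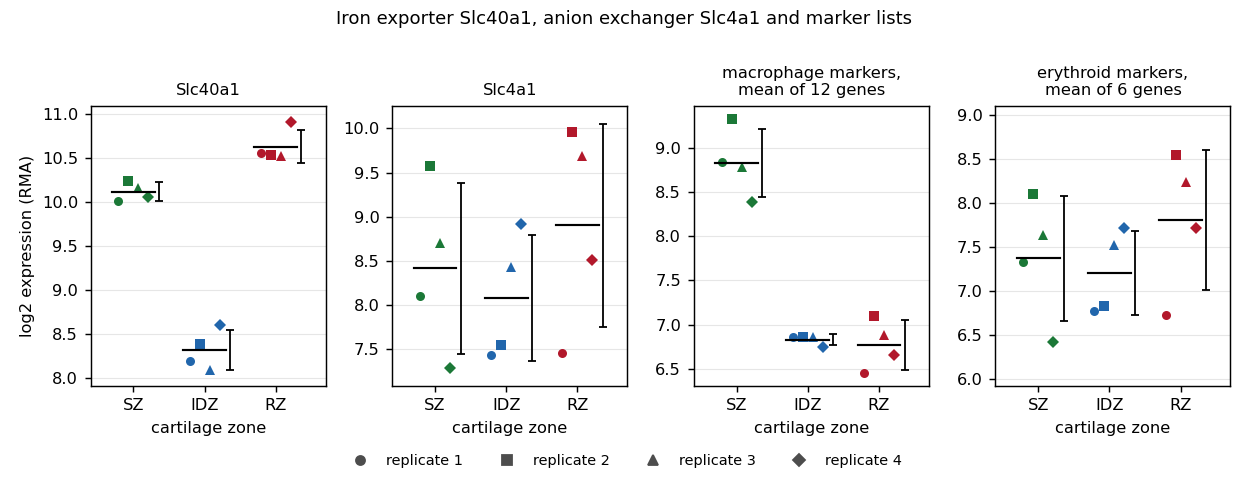
Log2 expression (y axis) of Slc40a1 and Slc4a1 and the mean log2 level of the macrophage and erythroid marker lists in each array, by zone (x axis), with replicates as symbols, means as lines and SD as bars (n = 4). Slc40a1 is low in IDZ only (8.09 to 8.60), the macrophage list is high in SZ only (8.39 to 9.33), and Slc4a1 and the erythroid list scatter within every zone.

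The promoter window of Slc40a1, the carrier with the widest IDZ to RZ step, is shown as RefSeq gives it for build GRCr8, from 250 bases before to 50 bases after the start, at chr9:55543411-55543710 on the minus strand. The window holds no match to the metal response motif described with the zinc carriers, so none of it is in capitals, and nothing follows from that about any factor.
Slc40a1: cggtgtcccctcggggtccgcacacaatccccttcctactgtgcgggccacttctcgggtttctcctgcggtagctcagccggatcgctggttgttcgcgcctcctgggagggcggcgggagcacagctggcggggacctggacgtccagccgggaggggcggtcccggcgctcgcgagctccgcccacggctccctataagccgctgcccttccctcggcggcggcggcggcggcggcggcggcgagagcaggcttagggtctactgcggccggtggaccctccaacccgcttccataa

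The other iron and divalent metal carriers changed less. Slc11a1, which pumps iron and manganese out of the phagosomes of macrophages, read 5.80, 6.50, 5.96 and 6.16 in SZ, 5.86, 5.73, 5.47 and 5.26 in IDZ and 5.23, 5.73, 5.85 and 5.49 in RZ. The groups overlapped at single arrays, and SZ was 1.44-fold above both other zones (0.53 ± 0.17, adjusted p 0.039 against IDZ and 0.04 against RZ). With a random replicate block these became 0.05 and 0.052, and neither passed. The call against IDZ was also lost without SZ replicate 2, IDZ replicate 2, 3 or 4 or RZ replicate 4 (up to 0.12), and the call against RZ without SZ replicate 2 or 4, IDZ replicate 2 or 3 or RZ replicate 1 or 4 (up to 0.14). The macrophage list was higher in SZ on the same arrays, and its part was not tested.

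Slc11a2, which brings ferrous iron into the gut cell and out of the endosome, was highest in RZ, with 8.67, 8.56, 8.48 and 8.40 against 8.23, 7.94, 8.18 and 7.98 in IDZ. RZ did not overlap with IDZ or with SZ (7.88 to 8.39). IDZ lay below RZ in all 4 animal pools, with a mean difference of -0.44 ± 0.12 (adjusted p 0.032), and SZ lay below RZ by -0.35 ± 0.12 (adjusted p 0.042). Neither passed with a random replicate block (0.074 and 0.056). The first call was lost without IDZ replicate 2, 3 or 4 or RZ replicate 1, 2 or 3 (up to 0.11), and the second without SZ replicate 1, 3 or 4, IDZ replicate 3 or 4 or RZ replicate 1, 2 or 3 (up to 0.13).

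Of 20 genes of iron handling, 8 were higher in SZ than in IDZ (background 11.8% of clusters and 17.0% of genes) and none was lower (11.2% and 9.56%). They were led by the ferrireductases Steap4 (1.73, 3.31-fold) and Steap3 (1.35, 2.54-fold) and included the ferroxidases Cp (0.83) and Heph (0.78) that work with the exporter, and Hmox1 (0.83), which frees iron from haem. Steap4 read 8.91 to 9.69 in SZ, 7.26 to 7.76 in IDZ and 7.33 to 8.16 in RZ. All 12 macrophage markers were also higher in SZ than in IDZ, and their part in these differences was not tested. Between IDZ and RZ, where Slc40a1 changed most, 1 of the 20 was higher in IDZ and 1 in RZ (background 2.78% and 3.95% of clusters). Bmp6, which signals iron status in liver and is also a growth factor of cartilage, was 0.80 higher in IDZ (adjusted p 0.035). Fth1, the ferritin heavy chain that stores iron, was 12.35 to 12.51 in IDZ and 12.68 to 12.83 in RZ, and its difference of -0.29 passed (adjusted p 0.041). The calls of Bmp6 and Fth1 were not checked with single arrays left out. Tfrc, the transferrin receptor, passed in none of the comparisons (adjusted p 0.24, 0.96 and 0.33). Heph and Steap4 had RZ levels near those of IDZ, so their order over the zones was not that of Slc40a1.

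Zinc enters the cytosol through the ZIP carriers of family 39, and 14 of them were measured. Slc39a1, a widely expressed plasma membrane carrier, had levels of 11.86, 11.91, 12.04 and 11.55 in SZ, 10.65, 10.77, 10.76 and 11.01 in IDZ and 11.02, 10.98, 10.87 and 11.01 in RZ. All SZ arrays lay above all others. SZ was 2.06-fold above IDZ (1.04 ± 0.11, adjusted p 5.9e-06) and 1.83-fold above RZ (0.87 ± 0.11, adjusted p 2.9e-05), while IDZ and RZ differed by -0.17 ± 0.11 (adjusted p 0.45). Slc39a10 was 0.61 higher in SZ than in IDZ (adjusted p 0.0019).

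Slc39a8, a carrier of zinc and manganese that in mouse joints drives matrix proteases when overexpressed in chondrocytes, marked the articular zones. It read 8.85, 8.45, 9.04 and 8.49 in SZ, 8.63, 8.59, 8.88 and 9.11 in IDZ and 7.43, 8.02, 7.64 and 7.60 in RZ. SZ and IDZ overlapped over nearly their whole range, and every articular array lay above every RZ array. IDZ was 2.19-fold above RZ (1.13 ± 0.16, adjusted p 3.9e-04) and SZ 2.05-fold (1.04 ± 0.16, adjusted p 1.8e-04). The SZ minus IDZ difference was -0.10 ± 0.16 (adjusted p 0.72). In the animal pools IDZ was above RZ by 1.21, 0.57, 1.24 and 1.51. None of the macrophage or endothelial markers passed between IDZ and RZ. Their median IDZ minus RZ differences were 0.12 (-0.48 to 0.33) for macrophage markers and 0.32 (0.08 to 0.49) for endothelial markers. All endothelial differences had the direction of Slc39a8. The fibrous list was higher in IDZ than in RZ, as given above, and so was the joint surface list (7.68 to 8.41 in IDZ, 6.48 to 6.99 in RZ). The part of these lists in the Slc39a8 step was not tested.

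Slc39a14, a carrier of zinc, iron and manganese, ran the other way. Its levels were 9.41, 9.69, 9.56 and 8.96 in SZ, 10.27, 10.20, 10.04 and 9.89 in IDZ and 10.85, 10.47, 10.63 and 10.36 in RZ, with no overlap between zones. SZ was 1.62-fold below IDZ (-0.69 ± 0.15, adjusted p 0.0037) and 2.25-fold below RZ (-1.17 ± 0.15, adjusted p 3.4e-05). IDZ was below RZ in all 4 animal pools (-0.58, -0.28, -0.60 and -0.47). The mean of -0.48 missed the threshold (adjusted p 0.078) but passed it in IDZ and RZ arrays alone, with a replicate block (0.0056) or without (0.015), and also without SZ replicate 4 (0.011). Slc39a11 and Slc39a7, the latter a carrier of the endoplasmic reticulum, were lower in SZ than in IDZ by 0.59 and 0.35. Slc39a13, whose loss in humans gives a connective tissue disorder of the Ehlers-Danlos group, read 9.55 to 9.86 in SZ, 9.74 to 10.03 in IDZ and 9.68 to 10.12 in RZ, and its differences of -0.19, 0.08 and -0.12 passed no test.

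The ZnT carriers of family 30 move zinc out of the cytosol, and 10 were measured. Slc30a1, the exporter of the plasma membrane, had 7.79, 7.54, 7.68 and 7.74 in IDZ, 7.41, 7.29, 7.10 and 7.37 in RZ and 7.38 to 7.67 in SZ. IDZ lay above RZ in each animal pool (0.38, 0.25, 0.57 and 0.37), with a mean of 0.39 ± 0.10 (adjusted p 0.031). That call was lost without IDZ replicate 1, 3 or 4 or RZ replicate 2, 3 or 4 (up to 0.11) and with arrays centred on their medians (0.1). Slc30a9, linked to mitochondrial zinc, was lowest in SZ (8.77, 9.02, 9.16 and 8.45, against 9.40, 9.21, 9.28 and 9.17 in IDZ and 9.65, 9.46, 9.61 and 9.66 in RZ). The zones did not overlap, and the SZ minus RZ difference was -0.75 ± 0.13 (adjusted p 5.5e-04). The SZ minus IDZ difference of -0.42 (adjusted p 0.032) lost its call without SZ replicate 1 or IDZ replicate 1, 2 or 3 (up to 0.092). IDZ minus RZ, at -0.33 and adjusted p 0.17, passed in IDZ and RZ arrays alone, with a replicate block (0.022) or without (0.015), and without SZ replicate 4 (0.026). Slc30a4 was 0.56 higher in SZ than in IDZ (adjusted p 8.4e-04), and Slc30a7, which loads zinc into enzymes of the secretory path such as alkaline phosphatase, had differences of -0.16, -0.17 and -0.33, the last with an adjusted p of 0.074 (0.027 without SZ replicate 2).

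Of 14 genes of zinc and copper handling, 3 were higher in SZ than in IDZ and 2 in IDZ (background 11.8% and 11.2% of clusters). The metal-binding metallothioneins did not move as 1 group. Mt2A read 11.22, 11.89, 11.43 and 10.98 in SZ, 10.30, 10.37, 10.38 and 9.86 in IDZ and 9.52, 9.78, 9.97 and 9.44 in RZ. Every SZ array lay above every IDZ array, the difference was 1.15 ± 0.18 (adjusted p 2.3e-04), and IDZ minus RZ was 0.55 (adjusted p 0.09). Mt3 was 0.94 higher in SZ than in IDZ (adjusted p 4.2e-04). Mt1 differed by -0.01 ± 0.16, but metallothionein genes have near-identical copies whose RNA its probes may also read. Mtf1, the zinc sensor that switches on metallothioneins and Slc30a1, was lower in SZ than in RZ (-0.35, adjusted p 0.021). Sod3, the extracellular copper and zinc superoxide dismutase, was 2.87-fold higher in IDZ than in RZ (1.52 ± 0.10, adjusted p 2.6e-07), the zone step that Slc39a8 also had.

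Because Mtf1 acts at metal response elements, the promoter windows of Slc30a1 and Mt2A are shown, with matches to the core of that element in capitals (TGCACNC or TGCGCNC on either strand, so its reverse complement also appears). The windows are RefSeq's for build GRCr8, 250 bases before to 50 after the start, at chr13:106021769-106022068 on the plus strand and chr19:10838659-10838958 on the minus strand.
Slc30a1: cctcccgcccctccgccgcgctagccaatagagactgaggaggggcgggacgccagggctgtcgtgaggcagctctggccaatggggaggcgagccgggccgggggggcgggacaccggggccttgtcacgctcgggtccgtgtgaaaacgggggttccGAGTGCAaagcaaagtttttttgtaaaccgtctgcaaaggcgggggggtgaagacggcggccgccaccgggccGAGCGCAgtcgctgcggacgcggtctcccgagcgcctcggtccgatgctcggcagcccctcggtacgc
Mt2A: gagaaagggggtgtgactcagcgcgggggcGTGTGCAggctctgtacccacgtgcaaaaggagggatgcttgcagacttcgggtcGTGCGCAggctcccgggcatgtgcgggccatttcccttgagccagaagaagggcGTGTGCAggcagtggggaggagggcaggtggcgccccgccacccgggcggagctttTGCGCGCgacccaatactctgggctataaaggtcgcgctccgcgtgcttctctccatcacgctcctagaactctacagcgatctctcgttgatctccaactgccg

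Slc30a1 has 2 matches and Mt2A has 4. Among all 33469 promoter windows of that length, 24.2% held a match and 6.36% held at least 2. Of the carriers, 64 of 78 had a window, and 25 of their 70 windows, or 35.7%, held a match. The 24 genes with a match included Slc39a1, Slc39a7, Slc39a11, Slc39a13, Slc30a4 and Slc30a5 among the zinc carriers, and Slc24a3 and Slc4a2 outside them. They had no common order over the zones, since Slc39a1 and Slc30a4 were higher and Slc39a11 and Slc39a7 lower in SZ than in IDZ. A match says only that the letters are there.

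The copper carriers were Slc31a1, the main copper importer, and Slc31a2, a related protein of endosomes and lysosomes. Slc31a2 read 7.08, 7.19, 7.33 and 6.6 in SZ, 5.96, 6.38, 6.10 and 5.98 in IDZ and 6.23, 6.03, 5.94 and 6.11 in RZ. SZ did not overlap with either zone, and its differences were 0.95 ± 0.14 from IDZ (1.93-fold, adjusted p 1.8e-04) and 0.97 ± 0.14 from RZ (1.96-fold, adjusted p 1.2e-04). Slc31a1 read 9.93 to 10.69 in SZ, 10.15 to 10.37 in IDZ and 10.5 to 10.74 in RZ. IDZ was below RZ in each animal pool, and the mean of -0.35 (adjusted p 0.16) passed in IDZ and RZ arrays alone, with a replicate block (0.036) or without (0.014), and without SZ replicate 4 (0.022). Atp7b, a copper pump, was 0.90 lower in SZ than in IDZ (adjusted p 2.8e-04).

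Slc8a1, the sodium-calcium exchanger best known from heart muscle, had the widest SZ step of all 78 carriers. It read 8.14, 8.56, 8.59 and 7.59 in SZ, 6.19, 6.01, 6.03 and 5.80 in IDZ and 5.57, 5.50, 5.56 and 5.63 in RZ. No zones overlapped. SZ was 4.64-fold above IDZ (2.21 ± 0.17, adjusted p 3e-07) and 6.28-fold above RZ (2.65 ± 0.17, adjusted p 2.4e-08). Within animals 5 and 6 SZ exceeded IDZ by 2.32, and within animals 7 and 8 by 2.29. IDZ was above RZ in all 4 animal pools (0.61, 0.51, 0.46 and 0.17). The mean of 0.44 missed the threshold (adjusted p 0.17) but passed in IDZ and RZ arrays alone, with a replicate block (0.013) or without (0.0051), without SZ replicate 4 (0.012) and with arrays centred on their 75th percentiles (0.048).

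Slc8a1 was highest in SZ, as were the macrophage, endothelial, osteoclast, fibrous and joint surface lists given above. The mean of the 4 skeletal muscle markers overlapped between zones (7.38 to 8.34 in SZ, 7.88 to 8.15 in IDZ and 7.62 to 7.94 in RZ). Of the 4, Tnnt3 was lower in SZ than in IDZ and RZ. Acta1 was higher in SZ than in RZ (0.83, adjusted p 0.034), and Acta1, Ckm and Myh3 had their highest mean in SZ. The part of these lists in the result was not tested. Slc24a3, an exchanger that also uses potassium, read 7.11, 6.68, 6.67 and 6.97 in SZ, 5.88, 6.05, 5.99 and 5.89 in IDZ and 5.56, 5.88, 5.85 and 5.78 in RZ. Its SZ arrays all lay above the rest, 1.87-fold over IDZ (0.90 ± 0.11, adjusted p 2.9e-05) and 2.13-fold over RZ (1.09 ± 0.11, adjusted p 3.4e-06). Slc8a3, a relative of Slc8a1 known from muscle and brain, was lowest in SZ. It was 8.35, 8.46, 8.72 and 8.11 in SZ and 8.96, 8.98, 9.11 and 8.95 in IDZ without overlap, a difference of -0.59 ± 0.12 (adjusted p 0.0018). Against RZ (8.61 to 8.92) its difference of -0.39 passed (adjusted p 0.028), but not without SZ replicate 1 or RZ replicate 1, 3 or 4 (up to 0.081). The remaining 5 exchangers of families 8 and 24 passed no test.

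Of 9 other genes that clear or store calcium, 4 were higher in SZ than in IDZ and 2 lower (background 11.8% and 11.2% of clusters). The plasma membrane calcium pump Atp2b4 was 0.99 higher in SZ (9.94 to 10.53, against 9.21 to 9.39 in IDZ), and the store pump Atp2a3 was 0.90 higher. Mcu, the pore of calcium uptake into mitochondria, was 0.82 lower in SZ than in IDZ (adjusted p 4.8e-04) and 0.56 lower in IDZ than in RZ (adjusted p 0.026).

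The sodium-proton exchangers were headed by Slc9a9, an exchanger of endosomes, which fell zone by zone. Its levels were 7.97, 8.58, 8.29 and 7.60 in SZ, 7.46, 7.29, 7.28 and 7.36 in IDZ and 6.34, 6.26, 6.44 and 6.39 in RZ, with no overlap. SZ was 1.69-fold above IDZ (0.76 ± 0.16, adjusted p 0.0023), IDZ was 1.99-fold above RZ (0.99 ± 0.16, adjusted p 0.001) and SZ was 3.37-fold above RZ (1.75 ± 0.16, adjusted p 6.7e-07). In the animal pools IDZ exceeded RZ by 1.12, 1.04, 0.84 and 0.97. The fibrous and joint surface lists had the same order of zones. The endothelial markers, none of which passed between IDZ and RZ, also had a median IDZ minus RZ difference of 0.32, and the list mean was higher in IDZ than in RZ in each animal pool. The part of these lists was not tested.

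Slc9a8, an exchanger of the Golgi and endosomes, was the low carrier of SZ in this family. It read 7.71, 7.93, 8.05 and 7.40 in SZ, 8.70, 8.63, 8.54 and 8.63 in IDZ and 8.80, 8.61, 8.67 and 8.46 in RZ. SZ lay below every other array, by -0.85 ± 0.13 from IDZ (1.80-fold, adjusted p 1.5e-04) and by -0.86 ± 0.13 from RZ (1.82-fold, adjusted p 1.1e-04), while IDZ and RZ differed by -0.01 ± 0.13. Slc9a5 was also lower in SZ, by -0.45 from IDZ (adjusted p 0.0027). The gut and kidney type exchangers Slc9a2, Slc9a3 and Slc9a4 lay below the median cluster and passed no test.

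Among the 10 carriers of family 4, 2 were lower in SZ than in IDZ (background 11.2% of clusters and 9.56% of genes). In SZ against RZ, 3 were lower in SZ (11.1% and 12.2%). None passed as higher in SZ than in IDZ (11.8% and 17.0%) or RZ (10.0% and 14.5%). None passed between IDZ and RZ, where 2.78% of clusters were higher in IDZ and 3.95% in RZ. The adaptor Slc4a1ap was also lower in SZ than in RZ (-0.31, adjusted p 0.034). Slc4a3, a chloride-bicarbonate exchanger of heart and brain, had 7.12 to 7.35 in SZ, 7.86 to 8.12 in IDZ and 7.69 to 8.23 in RZ, and its difference of -0.78 ± 0.12 from IDZ was the largest of the family in that comparison (adjusted p 1.8e-04). Slc4a8, a sodium-driven exchanger, was -0.44 from IDZ. Slc4a2, the widely expressed exchanger on which osteoclasts depend, read 8.29 to 8.66 in SZ, 8.36 to 8.44 in IDZ and 8.19 to 8.37 in RZ, and its differences of 0.08, 0.11 and 0.19 passed no test (the last passed, as 0.26 with an adjusted p of 0.02, without SZ replicate 4). The carbonic anhydrases that supply bicarbonate split, with Car3, an enzyme of muscle and fat, 5.24-fold higher in SZ than in IDZ and the membrane enzyme Car12 4.85-fold lower (-2.28 ± 0.13, adjusted p 2e-08). Car12 read 6.99 to 7.06 in SZ, 8.95 to 9.59 in IDZ and 9.24 to 9.59 in RZ. Car3 scattered widely within SZ (8.35 to 9.49) and RZ (6.39 to 7.84).

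The cation-chloride cotransporters set cell chloride and volume. Slc12a2, which takes up sodium, potassium and chloride and is found in most cells, had 8.88 to 9.51 in SZ, 9.29 to 9.59 in IDZ and 9.38 to 9.68 in RZ, and its differences of -0.17, -0.11 and -0.28 passed no test. Slc12a4, which lets potassium and chloride out, was lower in SZ (9.17, 9.47, 9.16 and 8.74) than in IDZ (9.71, 9.63, 9.66 and 9.32) and RZ (9.75, 9.57, 9.66 and 9.40). The groups overlapped at single arrays, and the differences were -0.44 ± 0.14 (adjusted p 0.033) and -0.46 ± 0.14 (adjusted p 0.029). The call against IDZ was lost without SZ replicate 1 or 3 or IDZ replicate 1, 2 or 3 (up to 0.092) and that against RZ without SZ replicate 1 or RZ replicate 1, 2 or 3 (up to 0.095). Slc12a7, a relative of Slc12a4, was low in IDZ instead, with 7.69, 7.36, 7.48 and 7.21 there, 7.90, 7.95, 7.96 and 7.80 in RZ and 7.66 to 7.86 in SZ. RZ did not overlap with IDZ, and IDZ minus RZ was -0.47 ± 0.10 (adjusted p 0.013). Its SZ minus IDZ difference of 0.34 (adjusted p 0.025) was lost without SZ replicate 1, 2 or 3 or IDZ replicate 2 or 4 (up to 0.085).

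Of 15 genes of the sodium pump and of volume control, 10 were higher and 4 lower in SZ than in IDZ. The background was 11.8% and 11.2% of clusters, or 17.0% and 9.56% of genes. Fxyd5, a regulator of the pump, was 4.96-fold higher in SZ (10.26 to 10.64, against 7.52 to 8.59 in IDZ and 7.13 to 7.88 in RZ). The kinases Stk39 and Wnk4, which switch the cation-chloride cotransporters, were both lower in SZ than in IDZ, by -1.26 ± 0.11 and -0.84 ± 0.11. The pump's beta subunits differed between IDZ and RZ in opposite directions, Atp1b1 by 0.97 (adjusted p 0.0043) and Atp1b3 by -0.68 (adjusted p 5.8e-04). Atp1b1 read 9.42, 9.55, 9.50 and 9.87 in IDZ and 9.07, 8.77, 8.35 and 8.27 in RZ.

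Slc41a2, the 1 magnesium carrier measured, had 9.57 to 10.02 in SZ, 10.10 to 10.19 in IDZ and 9.68 to 10.07 in RZ. IDZ did not overlap with either zone, but its differences of -0.29 from SZ (adjusted p 0.088) and 0.23 over RZ (adjusted p 0.29) missed the threshold. After a further quantile normalization both passed, as -0.35 (0.0062) and 0.32 (0.033). Of 10 other genes of magnesium handling, 3 were higher in SZ than in IDZ and 1 in IDZ (background 11.8% and 11.2% of clusters). Their differences ran from -0.35 to 0.41.

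**Figure D5:**
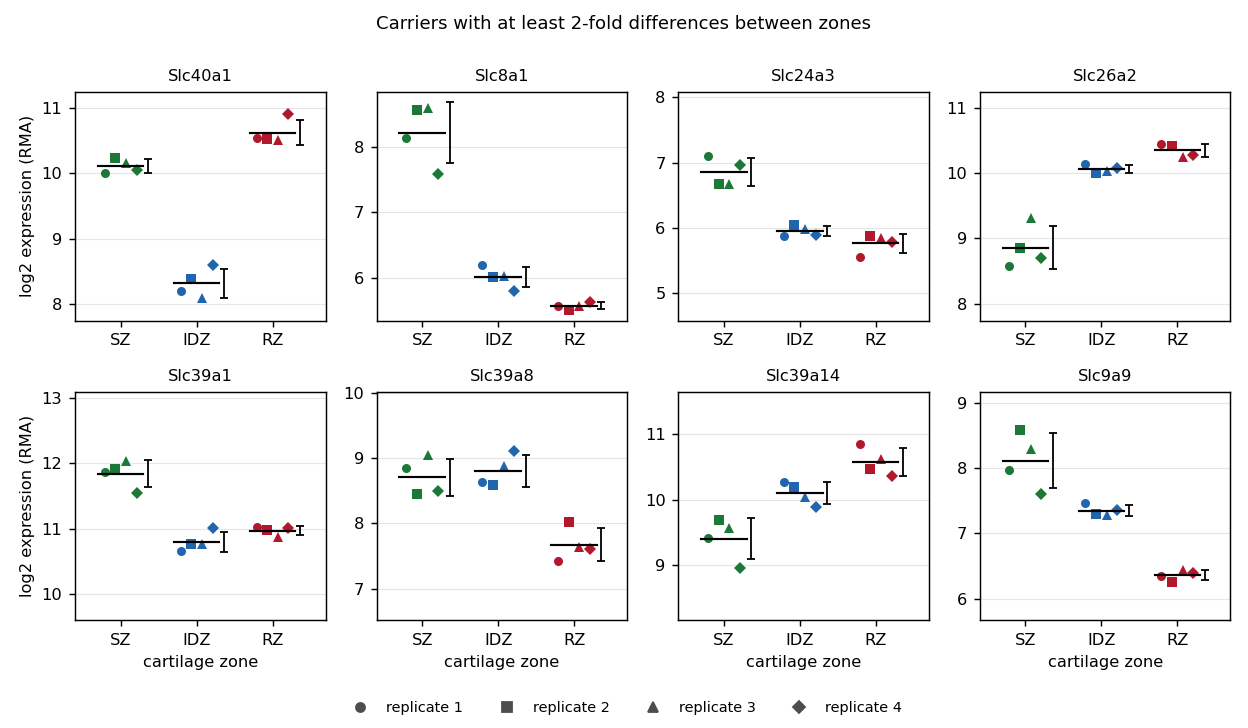
Log2 expression (y axis) of the 8 carriers that passed an adjusted p of 0.05 and 2-fold in at least 1 comparison, in each array, by zone (x axis), with replicates as symbols, means as lines and SD as bars (n = 4). All panels span the same number of log2 units, so that the 2.31 step of Slc40a1 and the 2.65 step of Slc8a1 can be set beside the 1.04 step of Slc39a1, and the SD bars are widest in SZ for Slc8a1 (0.47) and Slc9a9 (0.42).

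The 8 carriers with 2-fold differences had 5 orders over the zones, as the plot of the 2-fold carriers by array shows. Slc8a1, Slc24a3 and Slc39a1 were high in SZ, with no call between IDZ and RZ. Slc9a9 fell from SZ over IDZ to RZ, while Slc26a2 and Slc39a14 had their lowest mean in SZ and their highest in RZ. Slc39a8 was high in both articular zones, and Slc40a1 was low in IDZ alone. Spread among SZ arrays was wider than in IDZ for 7 of the 8, and SZ replicate 4 was the lowest SZ array for Slc8a1, Slc9a9, Slc39a1 and Slc39a14. The 47 carriers that passed no test had differences of at most 0.33 between SZ and IDZ, 0.82 between IDZ and RZ and 0.49 between SZ and RZ, all from Slc4a1.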

How the data were processed

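RNA of 12 samples was hybridized to Affymetrix Rat Gene 1.0 ST arrays, 4 per zone. The deposited log2 values came from the authors' run of RMA (robust multi-array average) in Partek 6.6, which corrects each array for background, normalizes arrays by quantiles and summarizes the probes of a transcript cluster. The deposited arrays still differed in median and spread. No further normalization was applied here, and the number of arrays limits the precision. One gene symbol was given for 15068 of 27342 clusters, 323 had several and 11951 had none. Only clusters of the first kind are named, by the brightest per gene, although all entered the tests.

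Differences between zones were estimated with limma 3.58.1 under R 4.3.3 from a fit of all 12 arrays with zone as the only factor, and p-values were moderated and adjusted (Benjamini-Hochberg, 27342 clusters per comparison), at 0.05 and, where stated, 2-fold, after the one-way design of the study. The test was checked on simulated data with independent arrays. Of 50 clusters shifted 1.5-fold, 36 passed between SZ and IDZ, 26 between IDZ and RZ and 33 between SZ and RZ. Of 50 shifted 2-fold, 48, 45 and 46 passed. Shared animals and the narrower range of SZ replicate 4 were not simulated. Counts and plots used pandas 2.3.3 and matplotlib 3.10.9 under Python 3.11.15. Replicates were separate animals (SZ) or pools of 2 (IDZ and RZ). The labels name the animals of every sample, and equal numbers in IDZ and RZ mean equal animals, so these numbers pair the samples. The deviations of paired arrays from their zone means correlated at 0.0184, 0.022, 0.0274 and 0.205. The consensus correlation within animal pairs, SZ arrays included, was -0.141. A fit with the replicate block stood as an alternative, beside other variance models, scalings, filters, arrays and single arrays left out.

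The genes, marker lists and partner lists were chosen with earlier results of these data known. Named were the carriers past 2-fold, the brightest and the most different of each role, carriers with textbook roles in cartilage, bone, blood or macrophages, and up to 3 partner genes per list and comparison with the largest differences. Some partners and carriers were named after their values were seen (Heph, Cp, Hmox1, Enpp1, Phospho1, Mtf1, Slc26a7, Slc39a10, Slc39a11, Slc39a7, Slc30a4, Slc4a3, Slc4a8, Slc9a5, Wnk4, Atp2a3). Of 183 list genes 29 were not analysed here. Promoter windows are those of RefSeq for build GRCr8, matched by symbol.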

Additional observations from a re-analysis of the deposited data

Results flagged for a closer look

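Of 81 groups of 4 arrays, 3 zones for each of 27 named carriers, 1 had an array standing apart from the other 3. Slc40a1 read 10.91 in RZ replicate 4, while the other RZ arrays read 10.52 to 10.55, so that the gap took 0.914 of the range of the group, above the limit of Dixon's test. Chance gives about 1 such group in 20. Without that array all 3 zone differences of Slc40a1 kept their direction and their call.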

How the results depend on the processing

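Leaving out single arrays moved the counts of carriers as follows. Between SZ and IDZ they ran from 8 to 14 higher in SZ and 10 to 21 higher in IDZ, between IDZ and RZ from 2 to 4 higher in IDZ and 2 to 8 higher in RZ, and between SZ and RZ from 6 to 12 higher in SZ and 10 to 18 higher in RZ. The highest of these all came without SZ replicate 4, whose spread enters the shared error. Over all clusters these fits gave 2729 to 4953 and 2200 to 6414 between SZ and IDZ. Between IDZ and RZ they gave 458 to 1572 and 634 to 2353, and between SZ and RZ 2413 to 3702 and 2319 to 4174. Counts of carriers at 2-fold ran from 3 to 5, 2 to 3 and 5 to 7. With dim clusters left out, 41 carriers were tested, of which 7 were higher in SZ than in IDZ and 6 higher in SZ than in RZ. Of the 13671 clusters in that fit, 2668 and 2050 were higher in SZ in these comparisons. With IDZ and RZ arrays alone, 10 were higher in RZ. With the replicate block of shared animals, 5 were higher in IDZ and 10 in RZ. The paired fit and the fit of IDZ and RZ arrays alone, which share their arrays, also raised the counts over all clusters, from 760 and 1080 to 1662 and 2324 with the replicate block and to 1711 and 2435 without it. Arrays centred on their medians gave 503 clusters higher in IDZ than in RZ. A random replicate block and the other alternatives kept every count of carriers within 1.5 times. Of 39 calls for named carriers, 26 held without any single array and in every alternative that tested them. Slc8a1, Slc24a3 and Slc31a2, which are among these, lay below the median cluster and so were absent from the fit without dim clusters. None of the 81 differences changed direction where it passed the test in some setting. Apart from the changes given with the genes, the replicate block changed no call of a named carrier. With unmoderated variances or only the arrays of the 2 zones compared, the calls of Slc11a1, Slc11a2, Slc12a4 and Slc20a1, of Slc30a9 and Slc12a7 between SZ and IDZ and of Slc8a3 between SZ and RZ missed the threshold in at least 1 of these fits (adjusted p 0.05 to 0.11). Centring arrays on their medians or 75th percentiles ended calls of Slc11a1, Slc11a2, Slc12a4, Slc12a7, Slc20a1, Slc30a1 and Slc30a9 (0.054 to 0.1). A further quantile normalization brought Slc12a2 (-0.25, adjusted p 0.043) and Slc30a7 (-0.30, 0.0077) past the threshold between SZ and RZ and Slc20a2 between SZ and IDZ (0.21, 0.047). The cause of these changes was not tested.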
